A study of Mus musculus with 6 samples.

Results

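The genes described here are 34 genes of the unfolded protein response (UPR) and of endoplasmic reticulum (ER)-associated degradation (ERAD), taken by symbol from the IRE1-XBP1 and ATF6 branches, the ERAD machinery and the ER chaperones. All 34 were among the 16217 genes of the deposited table. They were measured by RNA sequencing in Hepa1-6, a mouse hepatoma line, after stable lentiviral transduction and puromycin selection. In 3 libraries the short hairpin RNA targeted Ero1a (shERO1A), and 3 libraries carried the control shNC. No other treatment or time is given. No second hairpin is named, so reduced Ero1a and other differences between the transduced lines cannot be told apart. The labels do not tell whether the 3 libraries of a group are separate cultures; p-values therefore reflect only library-to-library spread, part or all of which could be technical. The values are FPKM, reads scaled to gene length and to the library's total, so levels can be compared between genes.

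Proteins that enter the ER are folded by chaperones such as BiP (Hspa5) and by lectin chaperones that hold sugar-bearing proteins, and disulfide bonds are made with the oxidase ERO1A, the target of the hairpin. When unfolded protein builds up, the membrane sensors IRE1 (Ern1), ATF6 and PERK signal to the nucleus. IRE1 splices the Xbp1 messenger RNA so that it encodes an active transcription factor, ATF6 is cut to free one, and both factors raise chaperone and ERAD genes. ERAD recognises proteins that fail to fold, moves them back to the cytosol through the SEL1L-HRD1 complex (Sel1l, Syvn1), tags them with ubiquitin and hands them to the ATPase VCP and the proteasome. Hepatocytes secrete much protein and depend on this system.

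Ero1a was lower in every shERO1A library. It was at 37.8, 39.6 and 38.4 FPKM in the 3 controls and at 15, 16 and 15.7 FPKM in the shERO1A libraries KD1, KD2 and KD3, which is 40.3% of the control mean (log2 change -1.26, SE 0.045, limma adjusted p = 6.21e-06). Between 38290505 and 39646829 reads per library lay behind the table. Of 10 liver and hepatoma markers, Trf (43.25 FPKM on average in shNC), Hnf4a (41.1 FPKM), Apob (36.2 FPKM), Afp (3.105 FPKM) and Apoa2 (0.9795 FPKM) were measured. Alb, Ttr, Apoa1, Serpina1a and Fgb were looked up by symbol and matched none of the 16217 genes, so they give no value for this check. The summed level of the 5 was 122 to 129 FPKM in shNC and 103 to 106 FPKM in shERO1A, and Hnf4a and Trf fell (limma adjusted p = 0.00287 and 0.0326), the call of Trf being lost in 6 of 13 alternatives. Among markers of other cell types, Ptprc and Itgam (immune cells) were at most at 0.0663 and 0.0275 FPKM in any library, Pecam1 (endothelium) at most at 0.151 FPKM, and 5 of 5 measured fibroblast and stellate cell markers stayed under 1 FPKM. The macrophage marker Cd68 was at 2.04 to 3.05 FPKM in the 6 libraries (limma adjusted p = 0.307, and 0.0232 as higher without KD3, in a range of 0.0232 to 0.588). The endothelial adhesion gene Cdh5 rose from 10.1 to 18.25 FPKM (limma adjusted p = 7.66e-05). KD3 stood apart from the other libraries: over the 10296 genes tested, its deviation from a gene's mean fell with gene length (Spearman's rho across genes -0.43, where the other libraries lay between 0.05 and 0.23). The main results that rest on KD3 are given with and without it.

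Promoter sequences of the members come first. Whether their motifs relate to the changes described below was not tested. RefSeq promoter windows (GRCm38.p6, from 250 bases before to 50 after a gene's start) were matched for 28 of the 34 members, and each motif was searched on both strands. The ER stress element ERSE, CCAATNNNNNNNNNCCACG, which NF-Y binds together with ATF6 or XBP1, was in the windows of 8 of the 28 members (28.6%) and of 37 of 27025 genes in all (0.137%). The related element ERSE-II, ATTGGNCCACG, was in 2 of the 28, Dnajb11 and Herpud1, and in 12 genes in all (0.0444%). The core TGACGTG of the UPR element UPRE was in Hspa5, Ube2j1 and Vcp (10.7% of members and 2.22% of all genes). Every ERSE and ERSE-II contains the NF-Y box CCAAT, which was in 75% of members and 41.1% of all genes. A match is a description of letters in this window and no measure of binding. The shares are no test of the members, which were listed as UPR and ERAD genes while the ERSE and UPRE are named as elements of the UPR. The shares of all genes cover every gene with a promoter window, whether or not it was expressed here.

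The ERSE matches are shown 5′ to 3′ on the gene's strand with 5 bases on either side, because they mark the members with the best-known UPR element. Capitals mark its fixed letters, which begin with CGTGG where the element lies on the opposite strand.
Hspa5, chr2:34772020-34772048, plus strand: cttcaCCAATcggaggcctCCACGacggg
Hsp90b1, chr10:86705633-86705661, minus strand: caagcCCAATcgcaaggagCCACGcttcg
Hsp90b1, chr10:86705528-86705556, minus strand: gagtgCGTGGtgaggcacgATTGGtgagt
Calr, chr8:84847070-84847098, minus strand: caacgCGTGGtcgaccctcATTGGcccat
Canx, chr11:50325795-50325823, minus strand: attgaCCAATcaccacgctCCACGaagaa
Dnajc3, chr14:118937822-118937850, plus strand: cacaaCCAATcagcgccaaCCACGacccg
Creld2, chr15:88819515-88819543, plus strand: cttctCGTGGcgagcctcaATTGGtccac
Syvn1, chr19:6046527-6046555, plus strand: cgcaaCCAATcggcggtagCCACGggaac
Derl3, chr10:75893237-75893265, plus strand: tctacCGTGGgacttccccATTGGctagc

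The 250 bases before the start are shown for the member that fell most, the member that rose and BiP as the reference gene of the pathway. The Herpud1 stretch (chr8:94386179-94386428, plus strand) has in capitals its ERSE-II and, on the opposite strand, a CARE, TGATGCAA, the element bound by ATF4 with C/EBP factors. The CARE was searched after the Herpud1 sequence had been seen, and was in 1 of 28 members and 1.03% of all genes. The Dnajb9 stretch (chr12:44210069-44210318, minus strand) has its NF-Y box in capitals and held no match to the longer motifs. The Hspa5 stretch (chr2:34771840-34772089, plus strand) has its UPRE core and its ERSE in capitals, the ERSE in full.
Herpud1: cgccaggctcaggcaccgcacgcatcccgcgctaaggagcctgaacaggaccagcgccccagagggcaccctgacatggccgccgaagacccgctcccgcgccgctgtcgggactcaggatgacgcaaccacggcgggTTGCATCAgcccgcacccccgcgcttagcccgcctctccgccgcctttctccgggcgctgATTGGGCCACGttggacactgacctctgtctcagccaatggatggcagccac
Dnajb9: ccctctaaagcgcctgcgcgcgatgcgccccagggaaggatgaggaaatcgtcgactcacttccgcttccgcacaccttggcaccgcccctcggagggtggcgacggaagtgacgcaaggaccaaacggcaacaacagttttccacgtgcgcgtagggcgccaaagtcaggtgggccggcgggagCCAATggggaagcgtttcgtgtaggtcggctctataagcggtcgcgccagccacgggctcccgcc
Hspa5: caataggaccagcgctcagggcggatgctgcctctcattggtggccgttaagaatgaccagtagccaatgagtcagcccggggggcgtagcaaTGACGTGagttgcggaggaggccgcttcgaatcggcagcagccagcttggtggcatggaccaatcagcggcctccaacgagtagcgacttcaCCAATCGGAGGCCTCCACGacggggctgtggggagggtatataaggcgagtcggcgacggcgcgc

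Few genes of the pathway passed the test between shERO1A and shNC: Dnajb9 rose, and Herpud1 and Uggt1 fell. Of the 34 members, 33 averaged 1 FPKM or more and entered the limma test on log2(FPKM + 1), with p-values adjusted over all 10296 genes and a threshold of 0.05. The 3 calls are 9.09% of the tested members, where 17.7% of all genes were called, 9.48% higher and 8.23% lower in shERO1A. The median log2 change was -0.01 over the members and 0.01 over all genes tested. For 30 of the 33 members the change was under 0.2 on the log2(FPKM + 1) scale in either direction, with Uggt1 just inside that limit. This scale shrinks changes of low genes: with limma-voom on reads, Uggt1 was at -0.209 and Erlec1 at -0.247. Of the 30 members that did not pass, 26 had a 95% interval of the change within 1.25-fold of no change, and Sdf2l1, Ern1, Erlec1 and Sec61b had wider ones. All 3 values of one group lay beyond the other in 10 of 33 members, 4 higher and 6 lower in shERO1A, against 40% of all genes.

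**Figure D1:**
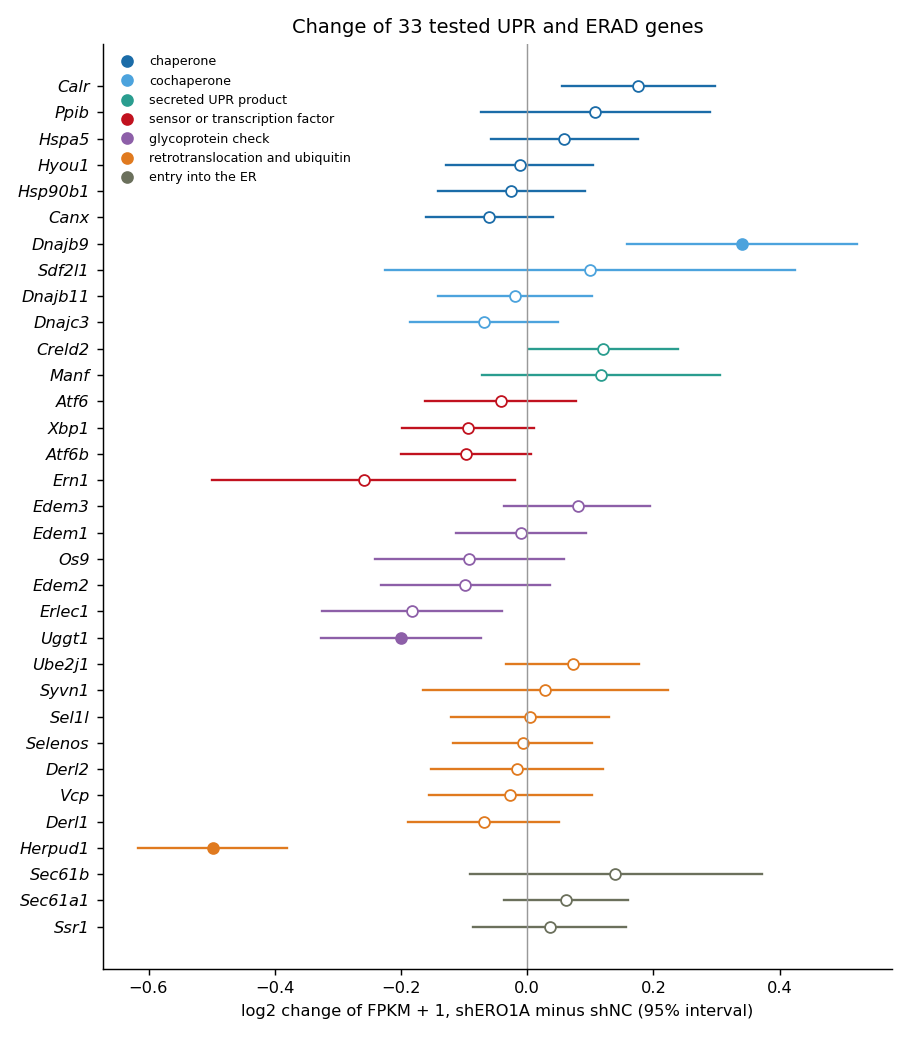
Log2 change of FPKM + 1 (shERO1A minus shNC, horizontal axis) of the 33 tested members, one row per gene, coloured by role; circles are estimates, lines 95% intervals from limma with 3 libraries per group, and filled circles passed an adjusted p of 0.05. Herpud1 at -0.50, Uggt1 at -0.20 and Dnajb9 at 0.34 are the 3 filled circles.

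Together the 34 members took 0.793%, 0.782% and 0.784% of the reads in the shNC libraries and 0.780%, 0.802% and 0.798% in KD1, KD2 and KD3, so the groups overlapped. The exact (Clopper-Pearson) 95% interval of the lowest share, in KD1, ran from 0.777% to 0.783%, which covers counting error only. In levels, 9 members were over 100 FPKM, 22 between 10 and 100, 2 (Edem3 and Erlec1) between 1 and 10, and Derl3 was under 1. In bulk RNA, fewer cells with a transcript and less of it per cell cannot be told apart. The median coefficient of variation over the tested members was 2.36% in shNC and 4.69% in shERO1A, and 27 of the 33 varied more in shERO1A. Over KD1 and KD2 alone the median was 2.25%, and 19 of the 33 varied more than in shNC. A spread over KD1 and KD2 alone tends to come out lower than one over a full group. These counts were not made over all genes, so they do not show a trait of the members.

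**Figure D2:**
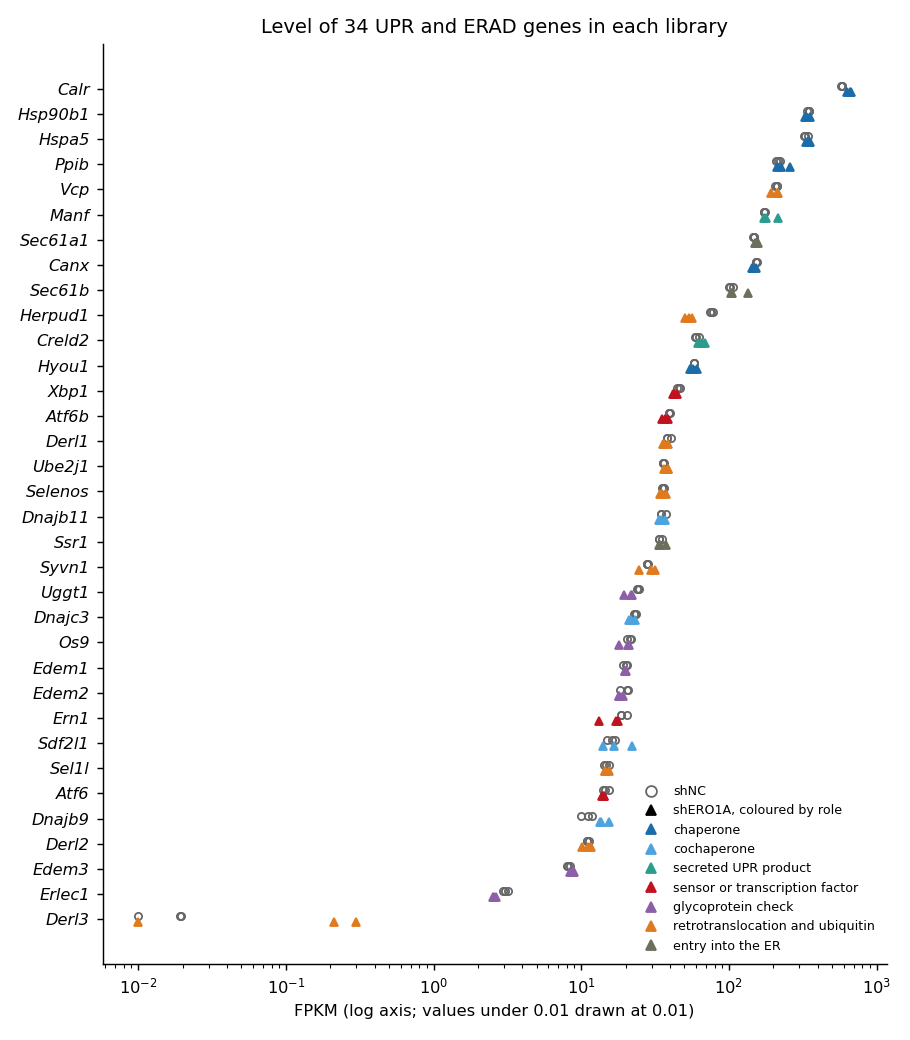
FPKM on a log axis of each of the 34 members in the 6 libraries, in order of mean level, with shNC and shERO1A libraries marked separately. Calr has the highest mean, 617 FPKM, and Derl3 the lowest, 0.092 FPKM.

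Among the ER chaperones, none passed and Calr came nearest. Calreticulin, the soluble lectin chaperone of the ER, was at 580.0, 583 and 573 FPKM in the 3 controls and at 634, 657 and 672 FPKM in KD1, KD2 and KD3. All 3 shERO1A libraries lay above all 3 controls. The ratio of means was 1.13 (log2 change 0.18, SE 0.052, limma adjusted p = 0.0534). Calr passed without KD3 (adjusted p = 0.00261), with limma-voom on reads (0.0168), with the gene length trend removed (0.0123) and in the authors' deposited table (q = 0.00823), within a range of 0.00261 to 0.211 over 13 alternatives. Canx, the membrane-bound relative of calreticulin, was at 153, 154 and 152 FPKM and at 145, 152 and 143 FPKM, with overlapping groups (log2 change -0.06, limma adjusted p = 0.385).

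BiP, the chaperone whose release from the sensors is a step in starting the UPR, did not pass. Hspa5 was at 342.5, 329.8 and 325 FPKM in the 3 controls and at 334, 351 and 355 FPKM in KD1, KD2 and KD3, and the groups overlapped. Its log2 change was 0.06, with a 95% interval of -0.06 to 0.18 (limma adjusted p = 0.452). Hsp90b1, which encodes the ER chaperone GRP94, was at 345 ± 5.18 and 339 ± 13.45 FPKM in shNC and shERO1A (SD, n = 3). Hyou1, a nucleotide exchange factor for BiP, was at 58.1 ± 0.221 and 57.7 ± 3.25 FPKM, and Ppib, the prolyl isomerase cyclophilin B, was at 215 ± 7.95 and 232 ± 24.8 FPKM with its highest value, 259.5 FPKM, in KD3 (log2 change 0.11, and 0.03 without KD3). Adjusted p-values (limma) of these 3 genes ran from 0.383 to 0.894.

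Among the cochaperones, Dnajb9 rose. It encodes ERdj4, a J-domain partner of BiP and a known target of spliced XBP1. Dnajb9 was at 11.2, 11.8 and 9.95 FPKM in the 3 controls and at 13.6, 13.4 and 15.5 FPKM in KD1, KD2 and KD3. Every shERO1A library lay above every control. The ratio of means was 1.29 (log2 change 0.34, SE 0.079, limma adjusted p = 0.0228), with 715 to 1146 reads per library behind it. KD3 was highest, and the log2 change without it was 0.28 (limma adjusted p = 0.016). The call was lost without shNC replicate 1 (adjusted p = 0.0723) and without shNC replicate 3 (0.0854), within a range of 0.0114 to 0.0854 over 13 alternatives.

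The other cochaperones did not pass. Dnajb11 (ERdj3) was at 35.55 ± 1.49 and 35.1 ± 1.65 FPKM in shNC and shERO1A (SD, n = 3), and Dnajc3 (p58IPK) at 23.1 ± 0.404 and 22 ± 1.145 FPKM. Sdf2l1, a partner of ERdj3, was at 16.3, 17 and 15 FPKM in the 3 controls and at 16.7, 14 and 22 FPKM in KD1, KD2 and KD3. The shERO1A values enclosed all 3 controls, with KD2 lowest and KD3 highest (log2 change 0.10, and -0.07 without KD3). Adjusted p-values (limma) of these 3 genes ran from 0.391 to 0.83.

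The secreted UPR products did not pass either. Manf, a protein released under ER stress, was at 173, 175 and 172 FPKM in the 3 controls and at 173, 178 and 215 FPKM in KD1, KD2 and KD3. KD3 alone stood high (log2 change 0.12, limma adjusted p = 0.364), and without it the change was 0.02. Creld2, an ER stress-induced protein, was at 60.2 ± 1.895 and 65.6 ± 3.27 FPKM (SD, n = 3; log2 change 0.12, limma adjusted p = 0.148).

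The 4 sensor and transcription factor genes had estimates below 0, and none passed. Ern1, which encodes IRE1, was at 18.7, 18.6 and 20.5 FPKM in the 3 controls and at 17.75, 17.2 and 13.25 FPKM in KD1, KD2 and KD3. The groups did not overlap, and KD3 was lowest (log2 change -0.26, 95% interval -0.50 to -0.02, limma adjusted p = 0.129). Without KD3 the log2 change was -0.14 (adjusted p = 0.0835). It passed in the authors' deposited table (q = 0.0416), within a range of 0.0416 to 0.335 over 13 alternatives.

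Xbp1 was at 47, 44.8 and 45.9 FPKM in the 3 controls and at 41.8, 42.25 and 44.7 FPKM in KD1, KD2 and KD3, with every shERO1A library just below the controls (log2 change -0.09, limma adjusted p = 0.198). It passed as lower without KD3 (adjusted p = 0.0268) and once the length trend was removed (0.0304), within a range of 0.0268 to 0.442 over 13 alternatives. These values are per gene, so splicing of Xbp1 by IRE1 was not measured. Atf6 was at 14.4, 14 and 15.4 FPKM and at 14.3, 14.2 and 13.9 FPKM, with overlap (limma adjusted p = 0.607). Its paralog Atf6b was at 39.6, 39.8 and 39.6 FPKM and at 35.5, 38.5 and 37.1 FPKM, without overlap (limma adjusted p = 0.18).

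**Figure D3:**
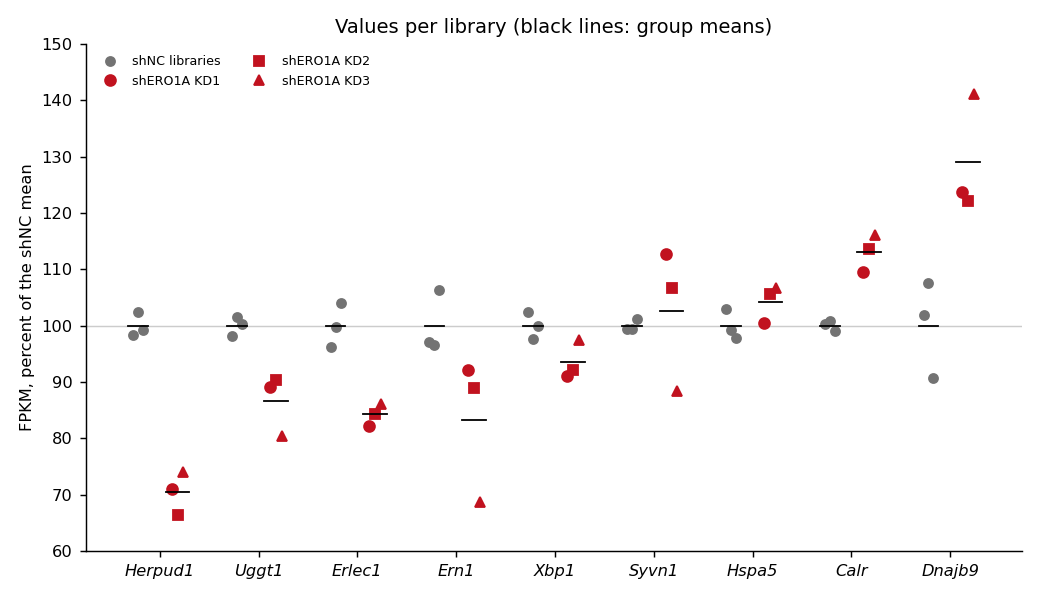
FPKM of each library as a percentage of the shNC mean (vertical axis) for 9 members, with shNC libraries in grey, KD1, KD2 and KD3 in red with different symbols, and black lines for group means. All shERO1A libraries lie below control for Herpud1 and above control for Calr and Dnajb9, and KD3 departs from KD1 and KD2 for Ern1 and Syvn1.

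In the recognition of misfolded glycoproteins, Uggt1 fell. It encodes the glucosyltransferase that senses incompletely folded glycoproteins and returns them to calnexin and calreticulin. Uggt1 was at 23.8, 24.65 and 24.3 FPKM in the 3 controls and at 21.6, 21.9 and 19.5 FPKM in KD1, KD2 and KD3. Every shERO1A library was below every control. The ratio of means was 0.866 (log2 change -0.20, SE 0.055, limma adjusted p = 0.0418). KD3 was lowest, and the log2 change without it was -0.15. The call was lost without each shNC replicate in turn (adjusted p = 0.107, 0.149 and 0.139), without KD1 (0.0576), without KD2 (0.0589) and with no filter on low values (0.0588), and held without KD3 (0.0171), within a range of 0.00558 to 0.149 over 13 alternatives.

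The lectins and EDEM proteins that read and trim sugars on misfolded proteins did not pass. Erlec1, an ERAD lectin, was at 2.95, 3.06 and 3.19 FPKM in the 3 controls and at 2.52, 2.59 and 2.645 FPKM in KD1, KD2 and KD3, without overlap (log2 change -0.18, limma adjusted p = 0.0804). It passed as lower with limma-voom (0.0201) and in the authors' deposited table (q = 0.00855), within a range of 0.00855 to 0.246 over 13 alternatives. Edem1, a known target of spliced XBP1, was at 19.9 ± 0.619 and 19.8 ± 0.1955 FPKM (SD, n = 3), and the 95% interval of its log2 change was -0.11 to 0.09. Edem2 was at 19.9 ± 1.28 and 18.5 ± 0.591 FPKM and Os9, the other lectin, at 21.2 ± 0.67 and 19.9 ± 1.62 FPKM (log2 change -0.09, and -0.03 without KD3). Edem3 was higher in all 3 shERO1A libraries, at 8.1, 8.05 and 8.34 FPKM and 8.43, 8.75 and 8.88 FPKM, a ratio of 1.06 (limma adjusted p = 0.315).

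Among the genes of retrotranslocation and ubiquitination, Herpud1 fell, by more than any other tested member. Its product HERP is an ER membrane protein of the HRD1 complex and is known to be strongly induced by ER stress. Herpud1 was at 74.6, 77.75 and 75.3 FPKM in the 3 controls and at 53.9, 50.4 and 56.2 FPKM in KD1, KD2 and KD3. Every shERO1A library was well below every control. The mean was 70.5% of control (log2 change -0.50, SE 0.051, 95% interval -0.62 to -0.38, limma adjusted p = 0.000588). The call held in all 13 alternatives, the highest adjusted p being 0.00628. The 7 tested genes with the ERSE shown above had log2 changes of -0.07 to 0.18 and none was called, where 17.7% of all genes were. Of these, Calr and Syvn1 were called higher without KD3 (limma adjusted p = 0.00261 and 0.0343), where 27.7% of all genes were called. Dnajb11, which shares the ERSE-II, had -0.02. Whether the changes relate to either element was not tested. The ERSE-II of Dnajb11 lies after the start, at positions 7 to 17, and that of Herpud1 before it, at -52 to -42.

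The partners of HERP did not pass. Sel1l, the scaffold of the complex, was at 14.8 ± 0.674 and 14.85 ± 0.608 FPKM (SD, n = 3), with a 95% interval of the log2 change of -0.12 to 0.13 (limma adjusted p = 0.966). Syvn1, which encodes the ubiquitin ligase HRD1, was at 27.7, 27.8 and 28.3 FPKM in the 3 controls and at 31.5, 29.8 and 24.7 FPKM in KD1, KD2 and KD3. KD1 and KD2 were above the controls and KD3 below them. Syvn1 passed as higher without KD3 (limma adjusted p = 0.0343, against 0.844 with all libraries and a range of 0.0343 to 0.99).

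The channel and extraction genes did not pass. The derlins Derl1 and Derl2, membrane proteins of the retrotranslocation machinery, were at 38.9 ± 1.51 and 37.1 ± 1.7 FPKM and at 11.1 ± 0.182 and 11 ± 0.748 FPKM in shNC and shERO1A (SD, n = 3). Selenos, a selenoprotein that binds VCP, was at 35.8 ± 0.616 and 35.6 ± 1.65 FPKM, and Ube2j1, a ubiquitin-conjugating enzyme, at 36 ± 0.438 and 37.9 ± 1.54 FPKM. Vcp was at 210.1 ± 4.955 and 206 ± 12 FPKM, with its lowest value, 192.5 FPKM, in KD3 (log2 change -0.03, and 0.02 without KD3). Adjusted p-values (limma) of these 5 genes ran from 0.317 to 0.934. Derl3, another derlin, was too low to test, with 1, 1 and 0 reads in shNC and 11, 0 and 16 reads in KD1, KD2 and KD3. The shERO1A libraries did not share a direction, since KD2 had no read.

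The genes for entry into the ER did not pass. Sec61a1, the channel subunit of the translocon, was at 148, 145.5 and 149 FPKM in the 3 controls and at 150.4, 153 and 158 FPKM in KD1, KD2 and KD3, without overlap (ratio 1.04, limma adjusted p = 0.36). Sec61b, a small subunit, was at 107, 102 and 101 FPKM and at 103, 105 and 136 FPKM. The groups overlapped, with KD3 alone above the controls (log2 change 0.14, limma adjusted p = 0.375), and without KD3 the change was 0.02. Ssr1, of the translocon-associated TRAP complex, was at 34.1 ± 0.75 and 35.05 ± 2.03 FPKM (SD, n = 3; limma adjusted p = 0.671).

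Deviations from a gene's mean moved with gene length among the members. Spearman's rho across the 33 tested members was -0.60 in KD3, 0.55 in shNC replicate 3, 0.39 in shNC replicate 2 and -0.08 to 0.25 in the other 3. The deviations of a gene balance out over the libraries, so a negative trend in KD3 brings positive trends elsewhere. The positive values are therefore no separate measure of length trends in the control libraries. On the log2(FPKM + 1) scale, KD3 was above the mean of KD1 and KD2 in 6 of 6 members under 1500 bases (median difference 0.27, and 0.22 over all tested genes of that length). It was above in 12 of 17 members of 1500 to 5000 bases (median difference 0.06, and 0.03 over all tested genes of that length). Of members of 5000 bases or more, it was above in 4 of 10 (median difference -0.02, and -0.10 over all tested genes of that length). Without KD3, Calr, Dnajb9 and Syvn1 were called higher and Xbp1, Uggt1 and Herpud1 lower, 6 of 33 members where 27.7% of all genes were called. With the gene length trend removed, a setting chosen after seeing the data, Calr and Dnajb9 were higher and Xbp1, Uggt1 and Herpud1 lower, against 21.6% of all genes. With limma-voom 5 of 33 members were called against 19% of all genes, and 6 of 34 had a q under 0.05 in the authors' deposited table, against 14.4%. What sets KD3 apart was not tested.

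**Figure D4:**
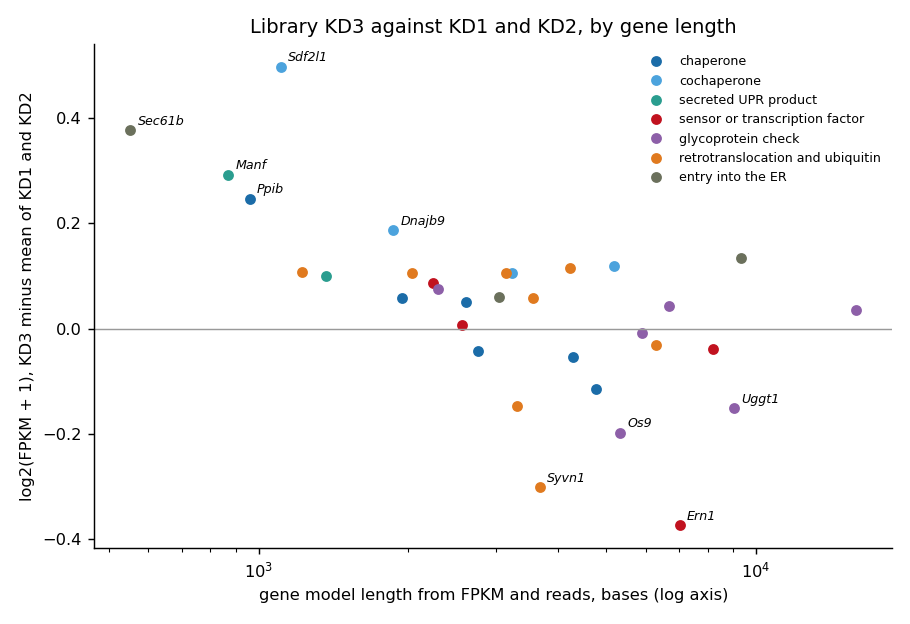
Difference between KD3 and the mean of KD1 and KD2 in log2(FPKM + 1) (vertical axis) for the 33 tested members against gene length in bases (log axis), coloured by role. The 6 members under 1500 bases, among them Sec61b, Manf, Ppib and Sdf2l1, lie above 0.

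Genes around the members were taken from 5 further lists, none of whose counts was tested against other genes; of all genes tested, 17.7% were called with all libraries and 27.7% without KD3. Of 50 other ERAD genes, 4 rose, 2 fell and 44 did not pass (12% called, against 17.7% of all genes; median log2 change 0.06). Man1a, a mannosidase that trims N-glycans, rose from 16.9 ± 0.981 to 23.4 ± 1.47 FPKM (SD, n = 3; limma adjusted p = 0.00251). Fbxo2, a ubiquitin ligase subunit that binds sugar chains, rose from 2.08 ± 0.252 to 3.39 ± 0.45 FPKM (adjusted p = 0.0108). Marchf6, an ER ubiquitin ligase, fell from 23.5 ± 0.476 to 20.3 ± 1.235 FPKM (0.0392). Of 13 alternatives, the calls of Man1a, Fbxo2 and Marchf6 were lost in 0, 2 and 5.

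Of 34 tested genes for other ER folding and glycan-trimming factors, 4 rose, 0 fell and 30 did not pass by limma (11.8% called, against 17.7% of all genes), and without KD3 8 rose and 3 fell, where 27.7% of all genes were called. Calu, the calcium-binding protein calumenin, rose from 181 ± 1.41 to 232.5 ± 10.1 FPKM (SD, n = 3; limma adjusted p = 0.00207). Fkbp11, a prolyl isomerase, rose from 4.79 ± 0.489 to 7.75 ± 1.13 FPKM (adjusted p = 0.00793), and Fkbp9 of the same family from 49.5 ± 0.522 to 57.4 ± 2.06 FPKM (0.0143). The disulfide isomerase Pdia4 rose from 103 ± 2.76 to 121 ± 1.63 FPKM (0.00947). Of 13 alternatives, the calls of Calu, Fkbp11, Fkbp9 and Pdia4 were lost in 0, 0, 3 and 2.

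Of 34 tested genes of the translocon, signal peptidase and oligosaccharyltransferase, 0 rose, 4 fell and 30 did not pass by limma (11.8% called, against 17.7% of all genes; median log2 change -0.01). Without KD3, 15 fell and 1 rose, where 27.7% of all genes were called. Sec11c, a catalytic subunit of signal peptidase, fell from 22.3 ± 0.557 to 16.9 ± 1.08 FPKM (SD, n = 3; limma adjusted p = 0.00306). Magt1 and Stt3a, subunits of oligosaccharyltransferase, fell to 82.9% and 87.2% of control, and Srp72 of the signal recognition particle to 89.5% (adjusted p = 0.00879, 0.0133 and 0.0257). The calls of Sec11c, Magt1, Stt3a and Srp72 were lost in 0, 1, 4 and 5 of 13 alternatives.

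In UPR signalling and the PERK arm, 3 of 22 tested genes rose, 1 fell and 18 did not pass (18.2% called, against 17.7% of all genes; median log2 change 0.10). Ddit3, which encodes the stress transcription factor CHOP, was at 7.23, 6.955 and 8.01 FPKM in the 3 controls and at 9.325, 9.68 and 9.535 FPKM in KD1, KD2 and KD3. The groups did not overlap (ratio 1.29, limma adjusted p = 0.00956). Ppp1r15a (GADD34), the phosphatase subunit that reverses PERK signalling, rose from 11.7 ± 1.01 to 14.5 ± 0.98 FPKM (SD, n = 3; adjusted p = 0.0369), and Creb3l2, an ATF6-like factor, rose from 42.5 ± 1.89 to 55.7 ± 2.55 FPKM (0.0025). Tmbim6 (BAX inhibitor 1) fell from 180.1 ± 2.295 to 157 ± 3.055 FPKM (0.0157). The calls of Ddit3, Ppp1r15a, Creb3l2 and Tmbim6 were lost in 0, 6, 0 and 4 of 13 alternatives. Eif2ak3, which encodes PERK, was at 7.87 ± 0.705 and 7.78 ± 0.198 FPKM and did not pass (limma adjusted p = 0.927). Atf4 was at 203 ± 4.19 and 185 ± 4.24 FPKM, lower in all 3 shERO1A libraries (limma adjusted p = 0.0704; q = 0.0317 in the authors' deposited table; 0.0146 to 0.238 over 13 alternatives).

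Known substrates of IRE1-dependent mRNA decay moved in both directions: of 4 tested, 2 rose and 2 fell, where 9.48% of all genes were called higher and 8.23% lower. Bloc1s1, a much-used marker of that decay, was at 37.5, 37.6 and 33 FPKM in the 3 controls and at 43.8, 48 and 54.7 FPKM in KD1, KD2 and KD3. The groups did not overlap, and KD3 was highest (ratio 1.355, limma adjusted p = 0.0138). It is short, at 550 bases, and also passed without KD3 (adjusted p = 0.00453; 0.00238 to 0.0619 over 13 alternatives). Hgsnat, a lysosomal acetyltransferase, rose from 21.9 ± 0.9425 to 26.6 ± 1.01 FPKM (SD, n = 3; limma adjusted p = 0.00945). Col6a1, a collagen chain, fell from 211.5 ± 0.982 to 154 ± 19.6 FPKM (0.0101), and Sparc, a secreted matrix protein, fell from 39 ± 1.83 to 28.9 ± 1.275 FPKM (0.00175). For Col6a1 KD3 was lowest, and the log2 change was -0.465 with all libraries and -0.355 without KD3. The calls of Bloc1s1, Hgsnat, Col6a1 and Sparc were lost in 1, 1, 0 and 0 of 13 alternatives.

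**Figure D5:**
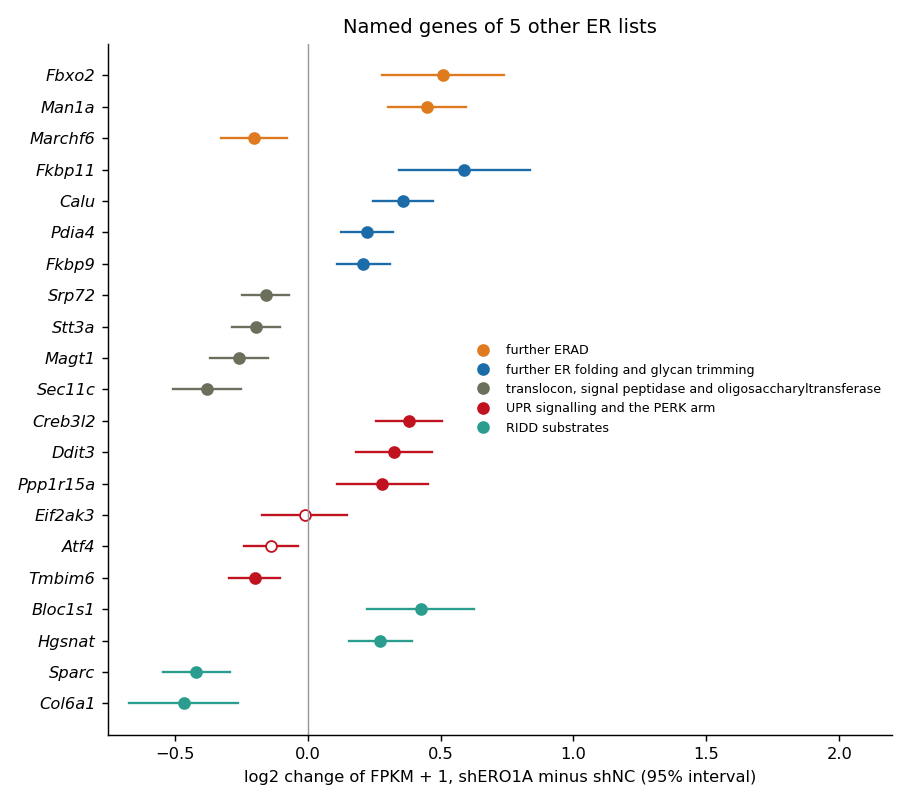
Log2 change of FPKM + 1 (shERO1A minus shNC) with 95% intervals from limma (3 libraries per group) for 21 named genes of the 5 further lists, coloured by list; filled circles passed an adjusted p of 0.05. The folding genes drawn lie above 0 and the translocon genes drawn below 0, but only called genes of these lists are drawn. In each of them, 30 of 34 tested genes did not pass and are not shown. Substrates of IRE1-dependent decay (RIDD) lie on both sides, and Eif2ak3 and Atf4 are open circles.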

How the data were processed

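Total RNA of 6 Hepa1-6 libraries was sequenced. The submitters' processing notes name HISAT2 2.1.0, HTSeq 0.11.2 and the genome build mm39. The annotation and the strand setting of counting were not given in the sources used here, so overlapping and antisense genes cannot be told apart. The authors deposited FPKM per library, identified as such from the values because the header gives no unit. Per the file headers, the authors also deposited base means (a DESeq2 signal per group), the fold change as a ratio, the log2 fold change, and a p-value and q-value per gene. The columns KD1 to KD3 name the shERO1A group but no single sample, and were treated as its 3 unnumbered libraries.

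The 10296 of 16217 genes that averaged 1 FPKM or more were tested with limma 3.58.1 in R 4.3.3 on log2(FPKM + 1) with a mean-variance trend, all 6 libraries and Benjamini-Hochberg adjustment over all of them. This scale understates changes of low genes, and each ratio printed divides the group means in FPKM. Reads were recovered from FPKM and base means (100% of 97302 values within 0.01 of a whole number). On simulated data of 10291 genes for this comparison, 74%, 94%, 98% and 100% of genes changed 1.25-, 1.5-, 2- and 4-fold were called, with 14 false calls. The simulation gave all 6 libraries the spread of the shNC libraries and no length trend. The median coefficient of variation over the tested members was 2.36% in shNC and 4.69% in shERO1A, so these shares are likely too high for the real libraries. Alternatives were another pseudocount, no filter, other scalings, limma-voom, the authors' q, leaving out each library, and removal of a length trend. The genes named are all members and, from each further list, up to 4 called genes with the largest absolute log2 change, plus Ddit3, Atf4, Eif2ak3, Bloc1s1, Ero1a and markers; values per library are given for members called with all libraries or without 1, and for Hspa5, Xbp1, Ern1 and Atf6. Those of Canx, Sdf2l1, Manf, Atf6b, Erlec1, Edem3, Sec61a1 and Sec61b were added after their values were seen. A called gene that this rule would name is not reported here. The members and lists were chosen with earlier results of these data known. Promoters were matched by symbol.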

Additional observations from a re-analysis of the deposited data

How the results depend on the processing

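No paired analysis was possible because the columns KD1 to KD3 match no single sample title. Herpud1 and Ero1a kept their direction and their call in all 13 alternatives. Over the fits that left out 1 library, 482 to 1521 genes were higher and 460 to 1332 lower (976 and 847 with all libraries), the lowest counts coming without an shNC replicate and the highest without KD3. Of the members, 0 to 3 were then higher and 1 to 3 lower (1 and 2 with all libraries). Members called higher numbered 2 with limma-voom, in the authors' deposited table and with the gene length trend removed, and those called lower 1 with no filter and 4 in the authors' table. Of all genes, 19% were called with limma-voom, 14.4% in the authors' table, 21.6% with the length trend removed and 10.5% with no filter.

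In the further lists, leaving out 1 library gave 1 to 4 higher and 0 to 3 lower for other ERAD genes, 2 to 8 and 0 to 3 for folding genes, 0 to 1 and 1 to 15 for translocon genes, 2 to 4 and 0 to 2 for UPR signalling, and 1 to 2 and 2 to 2 for substrates of IRE1-dependent decay. Other ERAD genes called lower numbered 0 with no filter and 1 with limma-voom and in the authors' table, and folding genes called lower 1 with the length trend removed. Translocon genes called lower numbered 8 under quantile normalization, with 1 higher, and 7 in the authors' table and with the length trend removed. UPR signalling genes called lower numbered 2 under those 3 settings. With all libraries, 50, 34, 34, 22 and 4 genes of these lists were tested. Of all genes, 9.25% to 27.7% were called over the fits that left out 1 library. Under quantile normalization 18.9% of all genes were called, and 14.4% in the authors' table. With the length trend removed the share was 21.6%, with limma-voom 19% and with no filter 10.5%. Why the counts of the lists changed was not tested.

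Of the log2 changes of named genes under the alternatives, 632 kept their direction and side of the threshold, 47 lost a call, 14 gained one and 22 changed sign, each of the last in a gene not called with all libraries. Leaving out 1 library gave Hyou1 -0.053 to 0.026, Dnajb11 -0.055 to 0.014, Sdf2l1 -0.066 to 0.243, Edem1 -0.031 to 0.011, Sel1l -0.027 to 0.036, Syvn1 -0.041 to 0.129, Derl2 -0.055 to 0.034, Selenos -0.043 to 0.020, Vcp -0.053 to 0.022, Ssr1 -0.009 to 0.068 and Eif2ak3 -0.071 to 0.044. Sel1l was at -0.003 with median-of-ratios scaling, -0.007 with quantile normalization and -0.004 in the authors' table, Eif2ak3 at 0.003 with quantile normalization and Edem1 at 0.000 with the length trend removed. With 3 libraries a group, all simulated with the spread of shNC, 74% of 1.25-fold changes were called, and smaller ones were not simulated. That share is likely too high here, because most members varied more in shERO1A than in shNC. Derl3, with 0 to 16 reads, is below what this depth can compare.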
